A study of Mus musculus with 12 samples.

Results

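The MHC class II genes and the genes that load them with peptide were followed in a mouse T cell leukemia line, 10 genes of the 23284 gene symbols in the deposited tables. They are the peptide-presenting chains H2-Aa, H2-Ab1, H2-Eb1 and H2-Eb2, the peptide editors H2-DMa and H2-DMb1, the editor's partners H2-Oa and H2-Ob, the invariant chain Cd74 and the transactivator Ciita. The set was chosen by the FPKM of H2-Oa and H2-Eb2, which were lower in cells with a Zmiz1 or Notch1 vector. The values of those 2 genes are therefore given as a description with no test, and the other 8 were tested.

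RNA of the line 8946 was sequenced in 12 libraries, 3 for each of 4 groups. Every group carried a GFP-marked and an NGFR-marked retrovirus and was sorted for both markers, so control cells were transduced too. By the titles, combined cells received the Notch1 mutant L1601P and Zmiz1. Zmiz1-titled cells received Zmiz1 with the empty MigR1 vector, Notch1-titled cells received L1601P with the empty NGFR vector, and control cells received empty MigR1 and empty NGFR. Notch1 is a receptor whose released intracellular part activates transcription, and Zmiz1 is a PIAS-like coactivator of transcription. All libraries come from 1 line with vector-driven expression, and nothing in the labels says whether the 3 libraries of a group came from separate transductions, so p-values measure only the spread between these libraries.

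The groups follow the sample titles, because the cell line label names the 2 single-vector groups the opposite way round. Zmiz1 was at 47.6 to 51.0 FPKM (the fragments of a gene divided by its length and by the size of the library) in combined cells, 67.7 to 74.4 FPKM in Zmiz1-titled cells, 0.194 to 0.221 FPKM in Notch1-titled cells and 0.170 to 0.180 FPKM in control cells. Notch1 was at 33.5 to 37.2 FPKM in combined cells, 1.92 to 2.34 FPKM in Zmiz1-titled cells, 22.1 to 42.2 FPKM in Notch1-titled cells and 1.80 to 1.97 FPKM in control cells. The Zmiz1 and Notch1 levels therefore go with the titles. Ngfr, the symbol of the NGFR marker, averaged 5.64 FPKM in combined and 7.43 FPKM in Zmiz1-titled cells. In Notch1-titled and control cells it averaged 72.9 and 85.2 FPKM. Comparisons of cells with and without the Zmiz1 vector thus also differ in the RNA of this marker, and the part of this in the results below was not tested. Under the cell line label the Zmiz1-titled and Notch1-titled groups would exchange names in everything that follows. Summed FPKM lay between 549098 and 606908 a library, read totals were not used here, and the low values gave a relative depth of 0.759 to 1.28. Replicate 2 of the Zmiz1-titled group was the shallowest and correlated least with the rest, with a mean r of 0.942 where others reached 0.957.

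MHC class II molecules are pairs of an alpha and a beta chain that carry peptides from endosomes to the cell surface for recognition by CD4 T cells. The invariant chain Cd74 blocks the groove until the DM pair (H2-DMa with a DM beta chain) exchanges its remnant for peptides, and the DO pair (H2-Oa with H2-Ob) holds DM back. Transcription of most of these genes depends on Ciita, which docks on the RFX, NF-Y and CREB factors bound at the conserved X and Y boxes of their promoters. Dendritic cells, B cells, macrophages and thymic epithelium are the usual class II positive cells, while mouse T cells are generally regarded as negative.

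The promoters are shown because these boxes stood before the RefSeq starts of detected genes and of genes near 0 alike. The GENCODE M21 gene positions given further on can start elsewhere. By those, the H2-DMb1 and H2-DMb2 sequences below lie inside the gene, and the H2-Oa sequence spans the gene start. RefSeq promoters on GRCm38.p6, the assembly that mm10 corresponds to, run 250 bases before to 50 bases after each start, and 7 of the 10 genes had one in the table. The letters AGNAAC (core of the X box) and GATTGG (Y box, which reads CCAAT on the other strand) were searched on both strands, and the motifs do not overlap each other. Letters and spacing were set after looking at these promoters. The capitals mark both motifs in the first 5 sequences and the Y box alone in the last 2, where the X core letters did not precede it; H2-DMb2, the close copy of H2-DMb1, is included for comparison.
H2-Oa, chr17:34092296-34092346, plus strand: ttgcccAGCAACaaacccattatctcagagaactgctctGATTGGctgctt
H2-DMb1, chr17:34153090-34153140, plus strand: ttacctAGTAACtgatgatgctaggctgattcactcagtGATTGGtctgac
H2-Ob, chr17:34238811-34238858, plus strand: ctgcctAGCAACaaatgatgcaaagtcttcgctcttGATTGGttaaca
H2-Eb1, chr17:34305769-34305818, plus strand: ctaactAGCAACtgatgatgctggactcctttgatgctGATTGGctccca
H2-Eb2, chr17:34325536-34325585, plus strand: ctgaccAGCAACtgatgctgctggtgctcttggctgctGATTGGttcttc
H2-DMb2, chr17:34145122-34145169, plus strand: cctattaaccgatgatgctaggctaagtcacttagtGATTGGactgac
H2-Aa, chr17:34287861-34287908, minus strand: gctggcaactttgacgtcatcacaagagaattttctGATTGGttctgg

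The gap between the motifs was 27 bases in H2-Oa and H2-DMb1, 24 in H2-Ob, and 26 in H2-Eb1 and H2-Eb2. Over all 32851 promoters of 300 bases, 48.1% held AGNAAC and 16.1% held GATTGG, while AGNAAC followed by GATTGG after 5 to 30 bases was in 170 of them, 0.517%. H2-Oa, H2-DMb1 and H2-Eb2 were detected and H2-Ob and H2-Eb1 were near 0, so genes with both motifs stood in both classes. For the class II genes the ordered pair was sought on the gene's own strand alone, and neither H2-DMa promoter in the table held it there. A match of letters is a description of the sequence and not a measured binding site.

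The 10 genes fell into detected and barely detected ones. H2-Oa, H2-DMb1, H2-Eb2 and H2-DMa passed the filter of a mean of 1 FPKM over the 12 libraries, and Ciita, Cd74, H2-Ab1, H2-Ob, H2-Eb1 and H2-Aa did not. In control cells, H2-Oa was the highest at 14.9 ± 0.275 FPKM (SD, n = 3), above H2-DMb1 at 3.42 ± 0.149 FPKM, H2-Eb2 at 3.38 ± 0.277 FPKM and H2-DMa at 2.42 ± 0.522 FPKM. The control libraries of H2-DMb1 and H2-Eb2 overlapped, and those of H2-DMa lay below both. In combined cells the order was H2-Oa, H2-DMb1, H2-Eb2 and H2-DMa, with no overlap between neighbours. RNA of both DM chains, 1 DO chain and 1 E-type beta chain was thus measured in cells where the classical chains H2-Aa and H2-Ab1 stayed under 0.1 FPKM. H2-DMa shares exon bases with Brd2 on the opposite strand, so its low level may hold Brd2 reads, which was not tested.

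**Figure D1:**
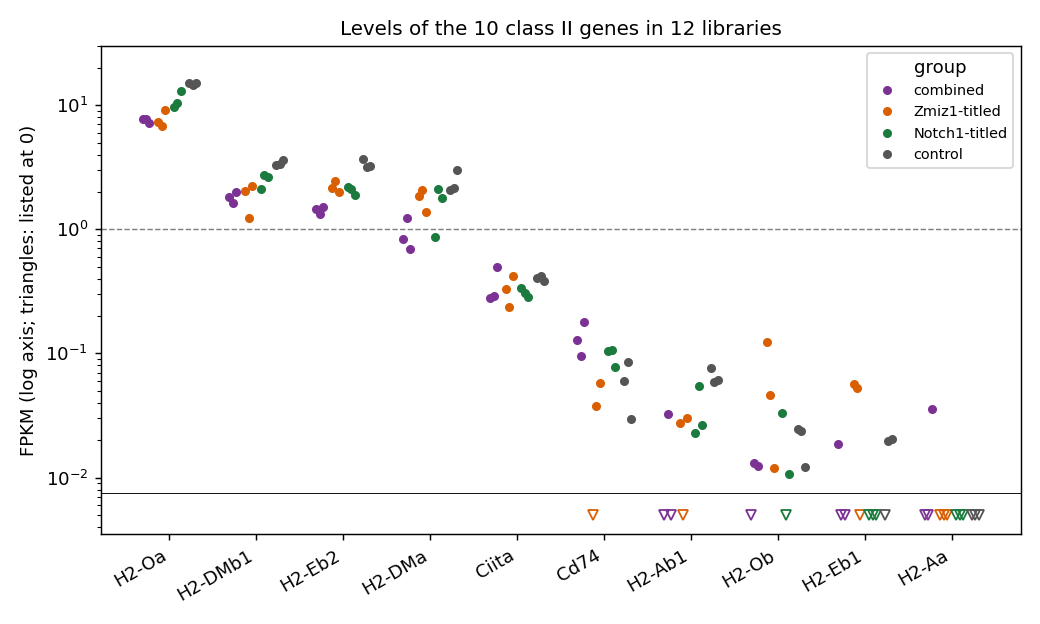
FPKM of the 10 genes in each of the 12 libraries on a log axis, with the 1 FPKM filter as a dashed line and open triangles for libraries listed at 0. 4 genes lie around or above the line in all groups, and 6 lie below it in every library.

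H2-Oa, the alpha chain of the DO pair, lies on chromosome 17 at 34092340 to 34095234 (mm10, plus strand, GENCODE M21). It measured 7.76, 7.76 and 7.14 FPKM in combined cells, 7.32, 6.74 and 9.10 FPKM in Zmiz1-titled cells, 9.69, 10.4 and 12.9 FPKM in Notch1-titled cells, and 14.97, 14.6 and 15.1 FPKM in control cells. Each of the 9 libraries with a Notch1 or Zmiz1 vector was below each control library, and the combined and Zmiz1-titled libraries overlapped at the low end. Notch1-titled libraries stood between these and the controls and overlapped neither. Means were 7.55 ± 0.359 FPKM in combined, 7.72 ± 1.23 FPKM in Zmiz1-titled, 10.998 ± 1.68 FPKM in Notch1-titled and 14.9 ± 0.275 FPKM in control cells. H2-Oa therefore stood at 50.7% of the control mean in combined cells, 51.8% in Zmiz1-titled cells and 73.8% in Notch1-titled cells. The log2 difference was -0.89, -0.88 and -0.41 in the same order, on the scale of log2(FPKM + 1), where low genes show less than their full change. Combined cells differed from Zmiz1-titled cells by -0.019 and from Notch1-titled cells by -0.48. In bulk RNA, fewer cells that express a gene and less of its RNA per cell cannot be told apart.

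H2-Oa shares 321 of its 1407 exon bases, 22.8%, with the antisense gene BC051537 (chromosome 17, 34083843 to 34095309, minus strand), and the library kit does not mark strand. BC051537 was picked for this overlap after its values were seen. It measured 1.09, 0.993 and 0.941 FPKM in combined cells, 0.895, 0.601 and 0.889 FPKM in Zmiz1-titled cells, 1.17, 1.31 and 1.67 FPKM in Notch1-titled cells, and 1.36, 1.59 and 1.89 FPKM in control cells. Its libraries with Zmiz1 lay below all control libraries and its Notch1-titled libraries overlapped them. BC051537 fell in Zmiz1-titled against control cells (log2 difference -0.54, limma adjusted p = 0.0376) and missed the threshold in combined (-0.37, 0.0885) and Notch1-titled cells (-0.13, 0.606). The call was lost without any 1 of the combined, Zmiz1-titled or control libraries or Notch1-titled replicate 2, with adjusted p between 0.0516 and 0.173 in limma, and without the filter (0.0549). The combined difference passed without Zmiz1-titled replicate 2 (0.0408) and in a fit of the combined and control groups alone (0.0369). Reads of the shared bases cannot be told apart between these genes. The p-values of BC051537 are therefore not a test apart from H2-Oa, which was chosen for its fall.

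H2-Ob, the beta chain of DO, was between 0 and 0.123 FPKM in the 12 libraries, with the highest value in Zmiz1-titled replicate 1. Its means were 0.00851 FPKM in combined, 0.0603 FPKM in Zmiz1-titled, 0.0145 FPKM in Notch1-titled and 0.0202 FPKM in control cells. The DO alpha chain was thus measured where its partner chain was close to 0.

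H2-DMb1, a beta chain of the DM editor, lies on chromosome 17 at 34153072 to 34160230. It measured 1.82, 1.62 and 1.99 FPKM in combined cells, 2.02, 1.24 and 2.22 FPKM in Zmiz1-titled cells, 2.12, 2.75 and 2.66 FPKM in Notch1-titled cells, and 3.29, 3.39 and 3.58 FPKM in control cells. Control libraries were above all others, and combined libraries overlapped Zmiz1-titled but not Notch1-titled ones. The test was limma on log2(FPKM + 1), fitted over all 12 libraries and all 10152 genes past the filter, with Benjamini-Hochberg adjustment and a threshold of 0.05. H2-DMb1 fell in Zmiz1-titled against control cells by 0.66 on the log2 scale (SE 0.130, adjusted p = 0.0274 in limma), to 53.4% of the control mean. It also fell in combined against control cells by 0.66 (SE 0.130, adjusted p = 0.0128 in limma), to 52.8% of the control mean. The Zmiz1-titled call was lost without control replicate 1, 2 or 3 (adjusted p = 0.0784, 0.107 and 0.124 in limma), without the filter (0.0683) and in a fit of these 2 groups alone (0.169). The combined call was lost without combined replicate 2 (0.0634) or control replicate 3 (0.0585).

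In Notch1-titled against control cells, H2-DMb1 differed by -0.34 (95% interval -0.63 to -0.05), which missed the threshold after adjustment (limma adjusted p = 0.185). Without Zmiz1-titled replicate 2, the library of lowest depth and the lowest for H2-DMb1, that adjusted p was 0.0337 in limma. Combined cells differed from Notch1-titled cells by -0.32 (95% interval -0.61 to -0.03, adjusted p = 0.461 in limma). From Zmiz1-titled cells they differed by 0.0051 (95% interval -0.28 to 0.29, adjusted p = 0.992 in limma), and the sign of this difference turned under other scalings.

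H2-DMb2, the second DM beta gene, lies at 34143307 to 34151555 on chromosome 17, next to H2-DMb1. It shares 369 stretches of 50 bases with H2-DMb1, 27.2% of those of H2-DMb1 and 21.2% of its own, so the authors' counting could split reads between them. It measured 1.04, 1.39 and 1.00 FPKM in combined cells, 1.65, 0.788 and 1.47 FPKM in Zmiz1-titled cells, 1.15, 1.44 and 1.54 FPKM in Notch1-titled cells, and 2.29, 2.54 and 2.48 FPKM in control cells. Control libraries were again above all others, and the other 3 groups overlapped. H2-DMb2 fell in combined against control cells by 0.68 on the log2 scale (limma adjusted p = 0.0164), a call lost without combined replicate 1 (0.0631) or 3 (0.0709) or control replicate 2 (0.0682) or 3 (0.0624). It differed by -0.60 in Zmiz1-titled cells (limma adjusted p = 0.0641) and by -0.54 in Notch1-titled cells (0.0557), both against control. These passed in 1 or more refits, Zmiz1-titled without Zmiz1-titled replicate 1 (0.0468) and Notch1-titled without Zmiz1-titled replicate 1 (0.0430) or 2 (0.00653), under median ratio scaling (0.0485), under quantile normalization (0.0499) and in a fit of these 2 groups alone (0.0205).

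H2-DMa, the only alpha chain of DM in the set, lies on chromosome 17 at 34119541 to 34139101. It measured 0.829, 1.23 and 0.690 FPKM in combined cells, 1.86, 2.05 and 1.38 FPKM in Zmiz1-titled cells, 0.869, 2.11 and 1.78 FPKM in Notch1-titled cells, and 2.07, 2.16 and 3.02 FPKM in control cells. Combined libraries were below all Zmiz1-titled and control libraries, while the Notch1-titled libraries spread over both ranges. H2-DMa fell in combined against control cells by 0.83 on the log2 scale (SE 0.194, adjusted p = 0.0294 in limma), to 38.0% of the control mean. That call was lost without combined replicate 1 (0.0944) or 3 (0.118), without control replicate 1 (0.0588), 2 (0.0725) or 3 (0.125), and without the filter (0.0840). Differences of -0.30 in Zmiz1-titled cells and -0.42 in Notch1-titled cells, both against control, did not pass (adjusted p = 0.576 and 0.271 in limma), and neither did -0.53 between combined and Zmiz1-titled cells (0.194) or -0.41 between combined and Notch1-titled cells (0.600). Of these 4 sizes, 3 moved by over 1.5 times when 1 library was left out. Notch1-titled against control was -0.21 without Notch1-titled replicate 1, and Zmiz1-titled against control was -0.20 without Zmiz1-titled replicate 3 and -0.18 without control replicate 3. Combined against Notch1-titled was -0.63 without Notch1-titled replicate 1 and -0.26 without Notch1-titled replicate 2. H2-DMa shares 360 of 3448 exon bases, 10.4%, with Brd2 on the opposite strand, a gene of 150.2 ± 6.32 FPKM in combined and 146.0 FPKM in control cells (log2 difference 0.04, not called). The kit does not mark strand, so reads of these shared bases cannot be told apart. How much Brd2 adds to the H2-DMa values was not tested.

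**Figure D2:**
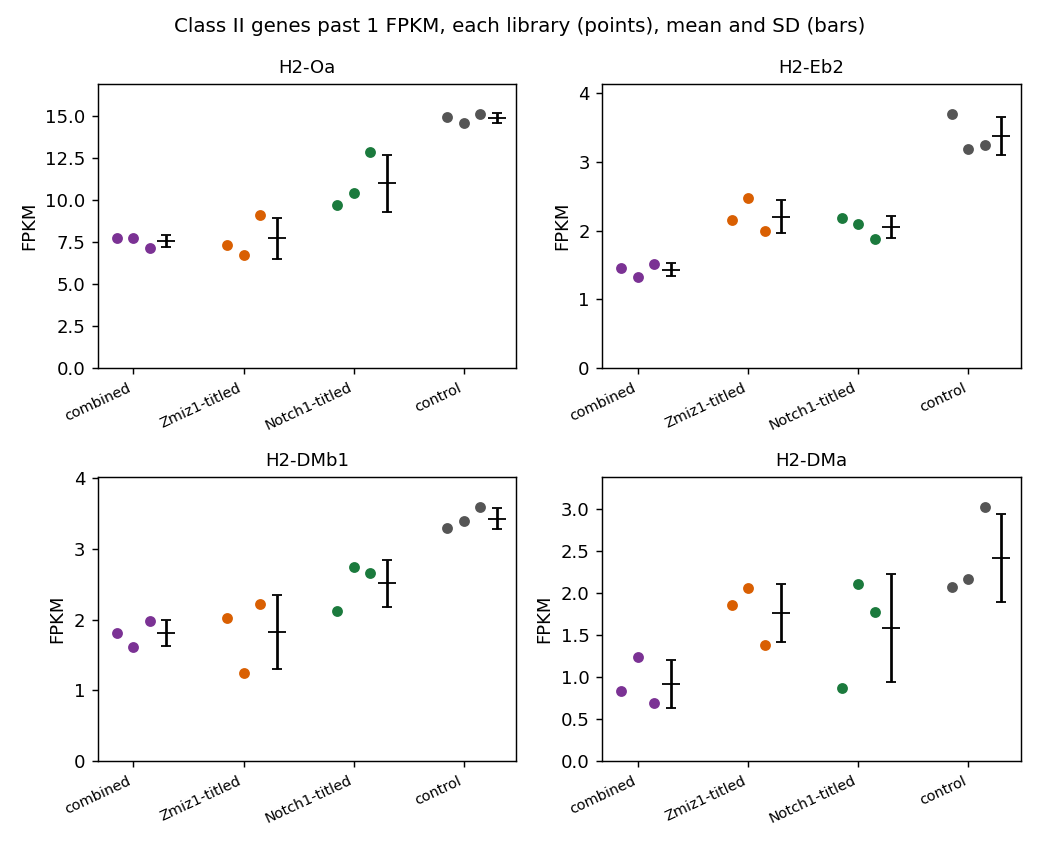
FPKM of H2-Oa, H2-Eb2, H2-DMb1 and H2-DMa in each library by group (points), with the mean and SD beside them (n = 3), each panel starting at 0. The control libraries are the highest in H2-Oa, H2-Eb2 and H2-DMb1, and H2-DMa spreads widely in Notch1-titled cells.

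H2-Eb2, an E-type beta chain gene that is less well characterised than H2-Eb1, lies at 34325665 to 34341412 on chromosome 17. It measured 1.46, 1.32 and 1.51 FPKM in combined cells, 2.15, 2.47 and 1.99 FPKM in Zmiz1-titled cells, 2.18, 2.099 and 1.87 FPKM in Notch1-titled cells, and 3.70, 3.19 and 3.25 FPKM in control cells. Combined libraries were the lowest and control libraries the highest without overlap, and the single-vector groups overlapped each other between them. Means were 1.43 ± 0.0986 FPKM in combined, 2.20 ± 0.242 FPKM in Zmiz1-titled, 2.05 ± 0.158 FPKM in Notch1-titled and 3.38 ± 0.277 FPKM in control cells. H2-Eb2 stood at 42.4% of the control mean in combined cells, 65.2% in Zmiz1-titled cells and 60.7% in Notch1-titled cells. Its log2 differences from control were -0.85 in combined, -0.45 in Zmiz1-titled and -0.52 in Notch1-titled cells. Combined cells differed from Zmiz1-titled cells by -0.40 and from Notch1-titled cells by -0.33.

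H2-Oa and H2-Eb2 thus had unlike orders of groups. In H2-Oa the Zmiz1-titled cells were at the level of combined cells, and in H2-Eb2 they were at the level of Notch1-titled cells. In H2-DMb1, as in H2-Oa, the control mean was the highest and the Notch1-titled mean the next. The combined and Zmiz1-titled means lay below these in both genes. Libraries of the combined and Zmiz1-titled groups overlapped, so the order of their means is not settled in either gene.

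**Figure D3:**
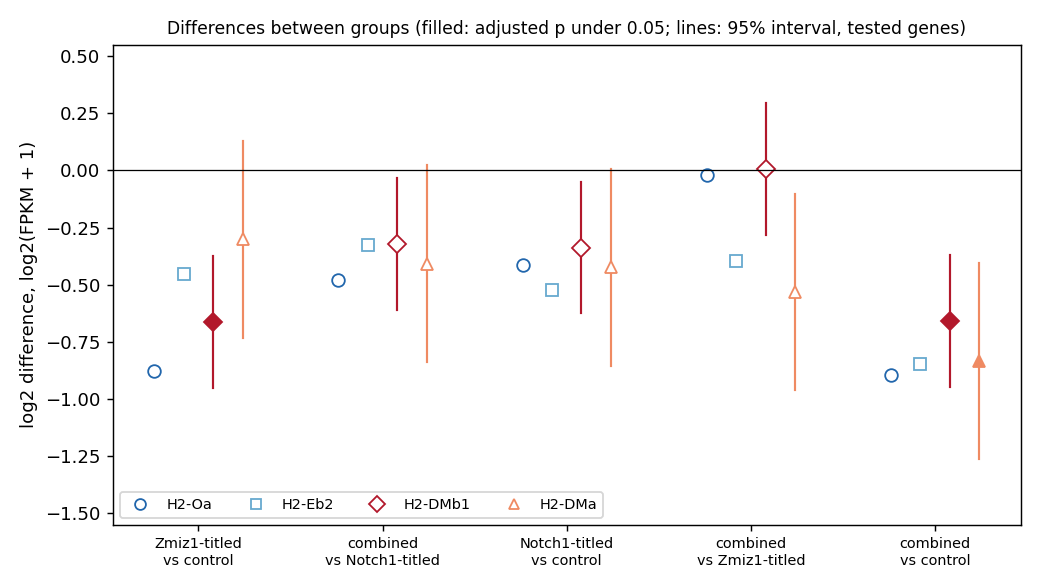
Log2 differences of log2(FPKM + 1) for H2-Oa, H2-Eb2, H2-DMb1 and H2-DMa in 5 comparisons, with the 95% interval for the 2 tested genes and filled symbols where the limma adjusted p is under 0.05. H2-DMb1 is filled in Zmiz1-titled and combined against control and H2-DMa in combined against control, while the open symbols of H2-Oa and H2-Eb2 mean that they were not tested.

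The classical chains that present peptide were close to absent. H2-Aa, the A alpha chain, was listed at 0 in 11 of 12 libraries and at 0.0354 FPKM in combined replicate 3. H2-Ab1, the A beta chain, measured 0, 0.0327 and 0 FPKM in combined cells, 0.0276, 0 and 0.0299 FPKM in Zmiz1-titled cells, 0.0228, 0.0546 and 0.0266 FPKM in Notch1-titled cells, and 0.0757, 0.0587 and 0.0607 FPKM in control cells. Its control libraries were above all others, at levels where the value of 1 fragment is not known, and its adjusted p in combined against control cells was 0.0686 in limma without the filter. It reached 0.0433 without Zmiz1-titled replicate 2 and 0.0494 without combined replicate 2, both in limma. H2-Eb1, the E beta chain, was between 0 and 0.0563 FPKM, with the highest library in the Zmiz1-titled group.

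Cd74, the invariant chain, measured 0.127, 0.0951 and 0.180 FPKM in combined cells, 0, 0.0375 and 0.0581 FPKM in Zmiz1-titled cells, 0.104, 0.106 and 0.0775 FPKM in Notch1-titled cells, and 0.0597, 0.0854 and 0.0295 FPKM in control cells. The combined libraries were above the Zmiz1-titled and control ones and overlapped the Notch1-titled ones. No Cd74 difference passed the threshold; the nearest was combined against Zmiz1-titled cells (limma adjusted p = 0.0982 without the filter). Ciita, on chromosome 16 at 10480059 to 10528418, measured 0.280, 0.291 and 0.495 FPKM in combined cells, 0.333, 0.235 and 0.424 FPKM in Zmiz1-titled cells, 0.333, 0.309 and 0.285 FPKM in Notch1-titled cells, and 0.405, 0.421 and 0.381 FPKM in control cells. Notch1-titled libraries lay below control libraries, and combined and Zmiz1-titled libraries overlapped them. Its log2 differences from control were -0.05 in combined (95% interval -0.20 to 0.10), -0.08 in Zmiz1-titled (-0.23 to 0.07) and -0.10 in Notch1-titled cells (-0.25 to 0.05), none called in limma without the filter.

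Counted over the 8 genes open to a test, H2-DMb1 alone fell in Zmiz1-titled against control cells, 1 of 8. Over all genes, 1.03% past the filter and 0.537% without the filter fell in that comparison. H2-DMb1 and H2-DMa fell in combined against control cells, 2 of 8, where 2.49% of genes past the filter and 1.17% without it fell. The other comparisons called 0 of 8 in limma. The share of all genes called past the filter was 1.51% in combined against Notch1-titled cells, 5.49% in Notch1-titled against control cells and 3.86% in combined against Zmiz1-titled cells, and 0.739%, 2.19% and 1.53% without it. At an unadjusted p under 0.05 there were 1, 2 and 2 of the 8 in the same order. Over all genes that held for 9.003%, 18.8% and 15.8% past the filter and for 6.597%, 11.2% and 9.56% without it.

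The question of whether Zmiz1 acted differently with and without the Notch1 mutant was put as an interaction, combined minus Notch1-titled against Zmiz1-titled minus control. It was 0.34 for H2-DMb1 (95% interval -0.07 to 0.75) and -0.11 for H2-DMa (-0.71 to 0.50), both with adjusted p = 0.999 in limma. None of the 8 genes passed in limma, where 0.0690% of genes past the filter and 0.107% without it did. None of the 8 had an unadjusted p under 0.05, which 3.27% of genes past the filter and 3.28% without it had. As a description, the value was 0.40 for H2-Oa and 0.13 for H2-Eb2.

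Separation of libraries was common in these comparisons. In Zmiz1-titled against control cells 9.12% of genes past the filter were lower with no overlap, and in combined against control cells 13.5%. H2-Oa, H2-Eb2, H2-DMb1 and H2-DMa were lower without overlap in both of these comparisons. In Notch1-titled against control cells H2-Oa, H2-Eb2 and H2-DMb1 were lower without overlap, where 10.3% of all genes were. In combined against Notch1-titled cells the same 3 genes were lower without overlap, against 7.81% of all genes, and in combined against Zmiz1-titled cells H2-Eb2 and H2-DMa were, against 7.54%. All comparisons with control use the same 3 control libraries and are not independent of each other. H2-Oa and H2-Eb2 were also chosen for their fall, so these counts do not stand as support.

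Most neighbours on chromosome 17 were not called. Of 28 neighbouring genes listed, 27 were in the tables and 21 passed the filter, among them the class I peptide transporter genes Tap1 and Tap2, the immunoproteasome genes Psmb8 and Psmb9, and Brd2. BC051537, which overlaps H2-Oa and fell in Zmiz1-titled against control cells, was not on this list. In combined against control cells 1 of the 21 rose (the zinc transporter Slc39a7), 1 fell (H2-DMb2) and 19 were not called, with a median log2 difference of -0.01 against 0.02 over all genes. Over all 10152 genes past the filter, 656 were called in that comparison. Slc39a7 averaged 57.0 FPKM in combined, 44.8 FPKM in Zmiz1-titled and 45.8 FPKM in control cells, and it rose in combined cells against Zmiz1-titled cells (0.34, limma adjusted p = 0.0311) and control cells (0.31, 0.0336). The rise over control was lost without combined replicate 2 or 3 or any 1 control library (0.0702 to 0.138). The rise over Zmiz1-titled cells was lost without combined replicate 2 or 3, Zmiz1-titled replicate 1 or 2 or control replicate 2 or 3 (0.0508 to 0.137). None of the 21 was called in limma in Zmiz1-titled against control, combined against Notch1-titled or Notch1-titled against control cells, where 3, 2 and 1 had an unadjusted p under 0.05, against 12.8%, 9.003% and 18.8% of all genes past the filter. Tapbp, the class I loading factor tapasin, came nearest to a call. It measured 26.3, 25.8 and 25.9 FPKM in combined cells, 26.4, 22.4 and 27.3 FPKM in Zmiz1-titled cells, 29.0, 31.1 and 31.5 FPKM in Notch1-titled cells, and 30.3, 31.97 and 32.2 FPKM in control cells. All libraries with Zmiz1 were below all others. Its log2 differences were -0.31 in Zmiz1-titled (limma adjusted p = 0.0570) and -0.27 in combined cells (0.0518), both against control, and -0.22 in combined against Notch1-titled cells (0.235). The difference of combined from control cells passed in 6 of 19 alternatives (lowest adjusted p = 0.00560, without Zmiz1-titled replicate 2), that of Zmiz1-titled cells in 3 of 19 (lowest 0.0424) and that of combined from Notch1-titled cells in 1 of 19 (0.0316, without Zmiz1-titled replicate 2). Tap1 measured 33.0, 34.2 and 33.6 FPKM in combined cells and 33.8, 34.9 and 35.2 FPKM in control cells.

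**Figure D4:**
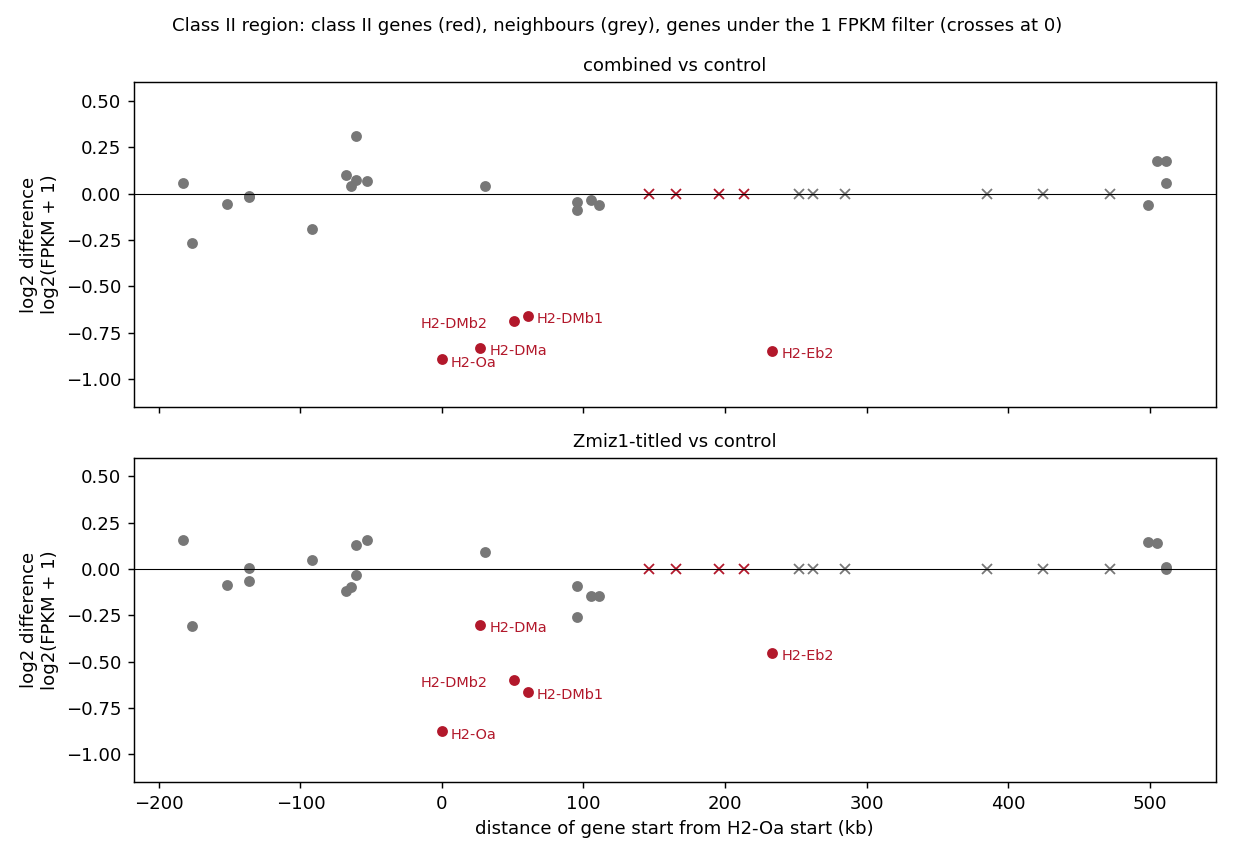
Log2 difference of log2(FPKM + 1) of genes of the class II region against the distance of each gene's start from the start of H2-Oa in kb, combined against control above and Zmiz1-titled against control below. Red marks class II genes, grey marks neighbours, and crosses at 0 mark only the place of genes under the filter. BC051537, which overlaps H2-Oa, is not drawn. H2-Oa, H2-DMa, H2-DMb2, H2-DMb1 and H2-Eb2 lie at the bottom of the upper panel, with the drawn detected neighbours between and around them near 0.

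The factors that bind class II promoters were all expressed. All 7 listed genes passed the filter: Rfx5, Rfxap and Rfxank of the RFX complex, Nfya, Nfyb and Nfyc of NF-Y, and Creb1. Rfx5, the large DNA-binding subunit of RFX, measured 9.48, 8.86 and 9.16 FPKM in combined cells, 10.8, 12.05 and 10.4 FPKM in Zmiz1-titled cells, 8.63, 8.76 and 8.50 FPKM in Notch1-titled cells, and 11.5, 11.3 and 11.1 FPKM in control cells. The libraries with the Notch1 mutant were below all others. Rfx5 fell in Notch1-titled against control cells by 0.35 on the log2 scale (limma adjusted p = 0.00506). It was the 1 of 7 called there, where 5.49% of all genes past the filter were called. It fell by 0.27 in combined against control cells (0.0178) and by 0.25 in combined against Zmiz1-titled cells (0.0386), again as the 1 of 7. Of all genes past the filter, 2.49% fell in the former comparison and 3.86% were called in the latter. The call against control was lost without combined replicate 2 or 3 or any 1 control library (0.0578 to 0.0897). The call against Zmiz1-titled cells was lost without any 1 combined or control library, Zmiz1-titled replicate 1 or Notch1-titled replicate 1 or 2 (0.0550 to 0.181). In Zmiz1-titled against control cells Rfx5 differed by -0.02 (limma adjusted p = 0.917), and none of the 7 had an unadjusted p under 0.05 there or in combined against Notch1-titled cells.

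Of 13 listed regulators of Ciita and genes of interferon gamma signaling, 12 were in the tables and 10 passed the filter. Ifng itself was listed at 0 in all 12 libraries. Ifngr1, the ligand-binding chain of its receptor, averaged 273 FPKM in combined, 253 FPKM in Zmiz1-titled, 359 FPKM in Notch1-titled and 326 FPKM in control cells. Ifngr1 fell in combined against Notch1-titled cells by 0.39 on the log2 scale (limma adjusted p = 0.00759) and in Zmiz1-titled against control cells by 0.37 (0.0111), a call lost without control replicate 2 (0.0618) or 3 (0.0549). It fell in combined against control cells by 0.25 (0.0309), a call lost without any 1 combined or control library (0.0897 to 0.115). Jak1, the receptor's kinase, fell in Notch1-titled against control cells by 0.34 (limma adjusted p = 0.00907), with means of 92.1 and 117 FPKM. Its fall of 0.24 in combined against control cells (0.0482) was lost without any 1 combined or control library, Zmiz1-titled replicate 1 or 3 or Notch1-titled replicate 2 (0.0513 to 0.158).

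Irf4, an interferon regulatory factor of lymphocytes, averaged 2.01 FPKM in combined, 1.89 FPKM in Zmiz1-titled, 3.34 FPKM in Notch1-titled and 2.12 FPKM in control cells. It rose in Notch1-titled against control cells by 0.48 on the log2 scale (limma adjusted p = 0.0361) and fell in combined against Notch1-titled cells by 0.53 (0.0488). The rise was lost without any 1 combined, Notch1-titled or control library (0.0537 to 0.122), and the fall without any 1 of those or Zmiz1-titled replicate 1 (0.0616 to 0.180). Of the 10, 2 fell in combined and 1 fell in Zmiz1-titled against control cells. Over all genes past the filter, 2.49% and 1.03% fell there. In combined against Notch1-titled cells 2 fell, where 1.51% of all genes were called in either direction. In Notch1-titled against control cells 1 rose and 1 fell, where 5.49% were called. Combined against Zmiz1-titled cells called 0 of 10 in limma, with 2 at an unadjusted p under 0.05. Over all genes past the filter, 3.86% were called there and 15.8% had such an unadjusted p.

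Of 12 endosomal protease and processing genes, 9 passed the filter and Ctsl was the 1 that was called. Over all 10152 genes past the filter, calls numbered 214 in Zmiz1-titled and 656 in combined against control cells. They numbered 153 in combined against Notch1-titled and 392 in combined against Zmiz1-titled cells. Ctsl, cathepsin L, which degrades the invariant chain in thymic epithelium, measured 848, 787 and 787 FPKM in combined cells, 1106, 1138 and 979 FPKM in Zmiz1-titled cells, 601, 545 and 602 FPKM in Notch1-titled cells, and 679, 598 and 595 FPKM in control cells. Zmiz1-titled libraries were the highest, combined libraries next, and Notch1-titled and control libraries overlapped. Ctsl rose in Zmiz1-titled against control cells by 0.78 on the log2 scale (limma adjusted p = 3.69e-04), in combined against Notch1-titled cells by 0.47 (0.0120) and in combined against control cells by 0.37 (0.0166). It fell in combined against Zmiz1-titled cells by 0.41 (0.0147). The call was lost in combined against Notch1-titled cells without combined replicate 1 (0.0705) or Notch1-titled replicate 2 (0.0646), and in combined against Zmiz1-titled cells without combined replicate 2 (0.0788) or 3 (0.0718) or Zmiz1-titled replicate 1 (0.0556). In combined against control cells it was lost without any 1 combined library or control replicate 2 or 3 (0.0515 to 0.0804). Ctss, the protease that does this work in dendritic and B cells, was listed at 0 in 11 of 12 libraries.

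Of 10 genes of class II trafficking and ubiquitination, 6 passed the filter, and Vps33b, a vesicle sorting protein, fell in combined against control cells by 0.26 on the log2 scale (limma adjusted p = 0.0347). It averaged 9.44 FPKM in combined and 11.5 FPKM in control cells, and the call was lost without any 1 combined library, Notch1-titled replicate 2 or control replicate 2 or 3 (0.0526 to 0.157). Vps33b was the 1 of 6 called in combined against control cells, where 2.49% of all genes past the filter fell. None of the 6 was called in the other comparisons, where at most 5.49% of all genes past the filter were called (Notch1-titled against control cells). Of 8 genes for class II receptors and costimulation 3 passed the filter, and none was called in limma in any comparison. At most 1 of the 3 had an unadjusted p under 0.05, among others in combined against Notch1-titled and Notch1-titled against control cells. Over all genes past the filter, such a p held for 9.003% and 18.8% there. Cd28, the costimulatory receptor of T cells, averaged 98.1 FPKM in combined and 125 FPKM in control cells.

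**Figure D5:**
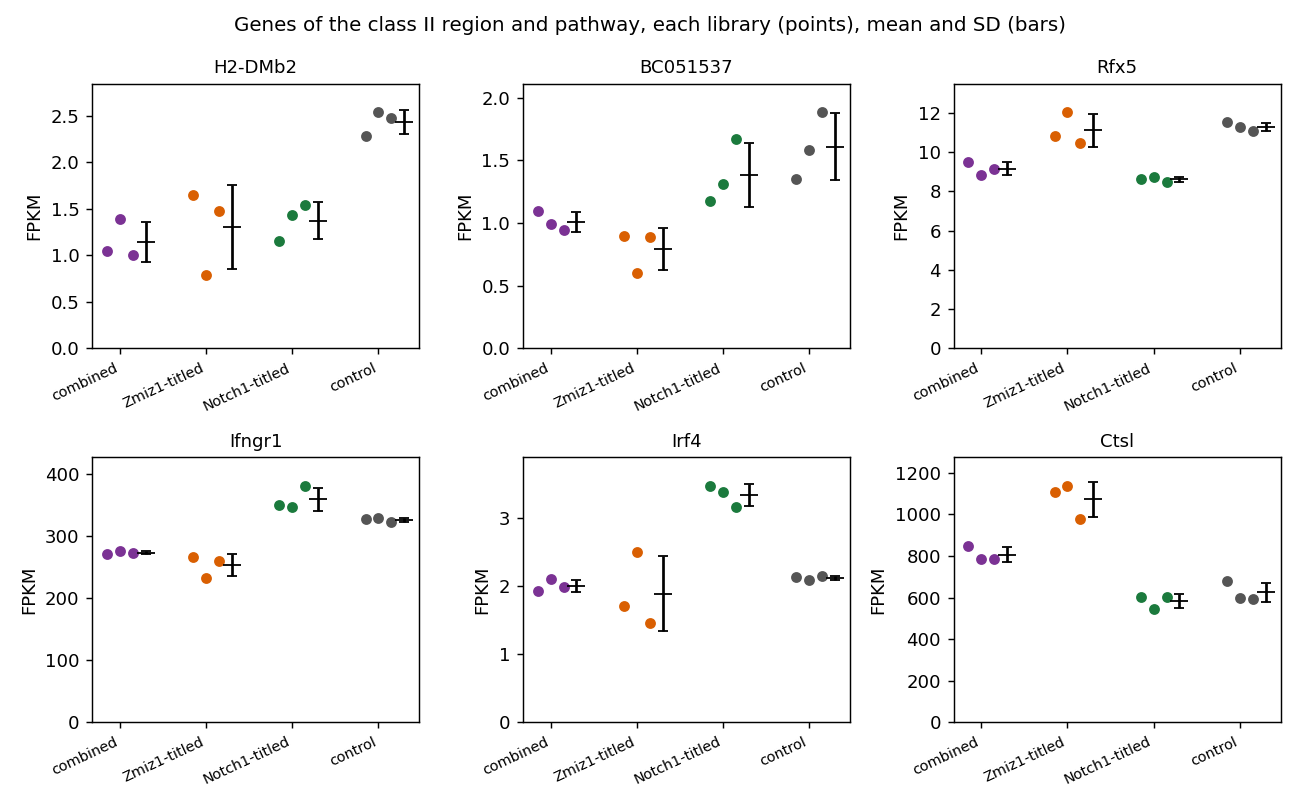
FPKM in each library by group (points), with the mean and SD beside them (n = 3), for H2-DMb2, BC051537, Rfx5, Ifngr1, Irf4 and Ctsl, each panel starting at 0. H2-DMb2 is highest in control cells, Rfx5 is lower with the Notch1 mutant, Ifngr1 is lower with Zmiz1, Irf4 is highest in Notch1-titled cells, and Ctsl is highest in Zmiz1-titled cells.

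Markers of the usual class II positive cells were at or near 0. All 8 B cell markers stayed under 1 FPKM in all 12 libraries and summed to 0.240 to 0.630 FPKM in combined, 0.332 to 0.493 FPKM in Zmiz1-titled, 0.333 to 0.627 FPKM in Notch1-titled and 0.338 to 0.585 FPKM in control cells, with Ms4a1 at 0 throughout. All 8 dendritic cell markers were under 1 FPKM, with sums of 0.240 to 0.373 FPKM in combined, 0.380 to 0.505 FPKM in Zmiz1-titled, 0.299 to 0.412 FPKM in Notch1-titled and 0.346 to 0.415 FPKM in control cells, and Clec9a at 0. The 5 thymic epithelium markers summed to at most 0.0297 FPKM, with Epcam and Foxn1 at 0. Of 7 macrophage and monocyte markers 6 were under 1 FPKM. The exception was Itgam, an integrin chain, which measured 59.1 to 61.5 FPKM in combined, 91.3 to 100.01 FPKM in Zmiz1-titled, 50.9 to 58.2 FPKM in Notch1-titled and 97.7 to 102 FPKM in control cells. Itgam fell by 0.72 on the log2 scale in combined and by 0.83 in Notch1-titled against control cells (limma adjusted p = 5.89e-05 and 2.83e-05), and by 0.67 in combined against Zmiz1-titled cells (1.19e-04). Without Itgam the macrophage sum was 0.371 to 0.953 FPKM over the 12 libraries.

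The T cell identity of the line was plain, since all 7 T cell markers were detected. They summed to 2796 to 2944 FPKM in combined, 2395 to 2667 FPKM in Zmiz1-titled, 2983 to 3429 FPKM in Notch1-titled and 2876 to 2985 FPKM in control cells. Cd3d, a chain of the T cell receptor complex, and Lck, its kinase, fell in Zmiz1-titled against control cells by 0.30 and 0.35 on the log2 scale (limma adjusted p = 0.0366 and 0.0274), 2 of 7. Of all genes past the filter, 1.03% fell there. The Cd3d call was lost without any 1 combined or control library or Zmiz1-titled replicate 2 or 3 (0.0577 to 0.176), and the Lck call without combined replicate 3, Zmiz1-titled replicate 1 or 2 or any 1 control library (0.0525 to 0.136). Cd2, an adhesion receptor, rose in combined against Zmiz1-titled cells by 0.43 (0.0477), 1 of 7, where 3.86% of all genes past the filter were called. The Cd2 call was lost without any 1 combined, Zmiz1-titled or control library or Notch1-titled replicate 2 (0.0522 to 0.209). The part of these T cell markers in the class II differences was not tested.

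The genes whose pattern lay closest to each detected gene were found by the root mean square distance of centred log2(FPKM + 1) values over the 12 libraries. Closest to H2-Oa were Cd7, Slfn2, Ms4a6c, Matk and Ltb, at distances of 0.119 to 0.162 beside a spread of 0.388 of H2-Oa itself. Cd7, a surface glycoprotein of T cells, averaged 28.8 ± 0.539 FPKM in combined, 25.5 ± 4.54 FPKM in Zmiz1-titled, 38.2 ± 3.91 FPKM in Notch1-titled and 46.6 ± 1.66 FPKM in control cells. Its combined and Zmiz1-titled libraries overlapped, as those of H2-Oa did, so the order of these group means is not settled in either gene. Closest to H2-DMb1 were Plat, Matk, Ltb, Cldn4 and Kcnh2 (0.0849 to 0.126, own spread 0.305), so Matk and Ltb were near both. Closest to H2-Eb2 were BC031353, Ccr7, Ms4a6b, B230206F22Rik and 3632451O06Rik (0.0943 to 0.134, own spread 0.310). Ccr7, a chemokine receptor of naive T cells, averaged 3.09 ± 0.146 FPKM in combined, 3.53 ± 0.168 FPKM in Zmiz1-titled, 3.87 ± 0.178 FPKM in Notch1-titled and 6.26 ± 0.330 FPKM in control cells. H2-DMa had less close neighbours, Eno3, Gm3086, Epsti1, Tnp2 and Tssc1 (0.193 to 0.212, own spread 0.367). These distances share the 12 libraries and their depth and are given as a description.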

How the data were processed

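The authors deposited 1 table of FPKM per gene symbol for each library. The submitters' processing notes name the build mm10, the tools TopHat2 2.0.9 with Bowtie2 2.1.0.0, Cuffdiff 2.1.1 beside Cufflinks, and FastQC 0.10.0; annotation and scaling are not given in the sources used here, and per the labels' protocols the kit was TruSeq mRNA v2. Values were used as deposited. The 10152 of 23284 genes whose mean over the 12 libraries reached 1 FPKM were tested on log2(FPKM + 1) with limma 3.58.1 in R 4.3.3 (4 group means, variance trend, two-sided, Benjamini-Hochberg over all genes tested, threshold 0.05), after a check on simulated data. Genes under the filter were read in the fit without it. Positions and overlaps came from GENCODE M21 and promoters from RefSeq, handled in Python 3.11.15.

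The members and lists were chosen with earlier results of these data known. Named were all 10 members, the 5 nearest genes of each detected one, called genes of each list (up to 4 a comparison), genes of the class II region, and the vector genes. Spi1, March1, March8, March9 and H2-Ea were not matched to a symbol and were not used here.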

Additional observations from a re-analysis of the deposited data

How the results depend on the processing

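Alternatives that can move a difference were a pseudocount of 0.1, quantile normalization, median ratio scaling and leaving out a library it uses. No filter, a 5 FPKM filter, the replicate block, only the groups compared (not for the interaction) and other left-out libraries cannot move it. Direction was kept in 1153 of 1162 gene differences, these unmoved ones and the chosen H2-Oa and H2-Eb2 included. Reversed were H2-DMb1 in combined against Zmiz1-titled cells under median ratio scaling (-0.012) and quantile normalization (-0.036) and without combined replicate 3 or Zmiz1-titled replicate 2 (leave-one-out range -0.15 to 0.11). There H2-Oa reversed without combined or Zmiz1-titled replicate 3 (-0.10 to 0.092), H2-DMb2 without Zmiz1-titled replicate 1 (-0.26 to 0.023) and Tapbp without Zmiz1-titled replicate 2 (-0.042 to 0.093). The H2-DMa interaction reversed without Notch1-titled replicate 2 (-0.32 to 0.042). Of the 8 tested genes, the number called in Zmiz1-titled against control cells was 0 without the filter, at 5 FPKM or with only the groups compared, and 0 to 1 with a library left out. In combined against control cells it was 1 without the filter or at 5 FPKM, where H2-DMa is read among more genes, and 0 to 3 with a library left out, 0 being without control replicate 3. With a library left out it was 0 to 1 in Notch1-titled against control cells and in combined against Zmiz1-titled cells, the 1 there being H2-Eb1, near 0 FPKM, without Zmiz1-titled replicate 3 (limma adjusted p = 0.0299). With a pseudocount of 0.1, H2-Eb2 differed by -1.18 in combined and -0.60 in Zmiz1-titled against control cells, and differences over 1.5 times the size given above were those of H2-DMa in combined against control (-1.32), Zmiz1-titled (-0.89) and Notch1-titled cells (-0.68) and in Notch1-titled against control cells (-0.64), H2-DMb2 in combined (-1.04) and Zmiz1-titled (-0.91) against control cells, BC051537 in Zmiz1-titled (-0.94), combined (-0.61) and Notch1-titled (-0.21) against control cells, and the H2-DMa interaction (-0.25). The H2-DMb1 interaction was 0.18 without Zmiz1-titled replicate 2. The labels do not say what a replicate number is, so libraries were not paired. Same-number correlations (-0.18 to 0.27) were over 0.1 in 6 of 18 pairs, against 4 of 36 others. Of the 12 libraries 9 were closest to their own number. This hints at partial pairing, which the main p-values leave out. The replicate block left the members called at 1, 0, 0, 0 and 2 and raised the calls over all genes to 365, 260, 1059, 721 and 1158, against 214, 153, 557, 392 and 656 (Zmiz1-titled against control, combined against Notch1-titled, Notch1-titled against control, combined against Zmiz1-titled, combined against control). The block added calls of Tapbp in combined (limma adjusted p = 0.0368) and Zmiz1-titled (0.0450) against control cells and changed no other call of a named gene. With only the groups compared, these calls were 49 in Zmiz1-titled against control, 155 in combined against Zmiz1-titled and 1386 in combined against control cells; at 5 FPKM they were 121 and 101 in the first 2 comparisons. With a library left out they spanned 74 to 241, 75 to 306, 272 to 989, 184 to 505 and 339 to 1090. Interaction calls, 7, were 25 without the filter and 3 at 5 FPKM or a pseudocount of 0.1. Among other named genes, calls of Ctsl in Zmiz1-titled against control, Ifngr1 in combined against Notch1-titled, Rfx5 and Jak1 in Notch1-titled against control cells and Itgam passed under every alternative. Those lost beyond the left-out libraries were Cd2 (limma adjusted p = 0.119), Lck (0.0534), Slc39a7 (0.0589 and 0.0604), Jak1 in combined cells (0.0604) and Irf4 (0.0841 and 0.109) without the filter; Cd3d (0.0512) and Jak1 (0.0587) at 5 FPKM; Irf4 (0.0626) and Jak1 (0.0531) at a pseudocount of 0.1; Irf4 (0.0531) under median ratio scaling; and Cd2 (0.0539), Irf4 (0.0553), Ctsl (0.0564) and Slc39a7 (0.0770) under quantile normalization. A fit of only the groups compared lost Cd2 (0.140), Cd3d (0.150), Lck (0.138), BC051537 (0.138), Ifngr1 in Zmiz1-titled cells (0.0969), Slc39a7 (0.125) and Rfx5 (0.222) against Zmiz1-titled cells, and Ctsl in combined against Notch1-titled (0.0517) and Zmiz1-titled cells (0.0620). The cause was not tested. FPKM files hold no counts, so genes under 1 FPKM have no known counting error.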
